A study of Mus musculus with 6 samples.

Results

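The expression of 8 genes of the JAK-STAT pathway, which relays cytokine signals such as that of thrombopoietin, was measured in mouse platelets carrying a mutant Nxf1 allele and in wild-type platelets. The 8 genes are the kinases Jak1, Jak2 and Tyk2, the transcription factors Stat3, Stat5a, Stat5b and Stat6, and the inhibitor Sh2b3. They were taken by name from the Entrez identifiers of the count files, by no rule on their values but with earlier results of these data known. All 8 were found among the 9822 genes measured. The Nxf1 protein exports mRNA from the nucleus. PolyA RNA was sequenced from 6 libraries made from pooled platelets of BalB/c males, and CD41+ events exceeded 98% by flow cytometry. The 3 mutant pools came from mice of genotype Nxf1+/C587R, which carry the C587R change on one copy of the gene, and the 3 wild-type pools came from their littermates. Each of 3 preparation days gave 1 pool per genotype. The labels give neither group a treatment, and the mice's age and the animals per pool were not given.

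Janus kinases (JAKs) are tyrosine kinases held on the inner side of cytokine receptors. When a cytokine binds, they phosphorylate the receptor and the STAT proteins that dock there, and the STATs pass to the nucleus and switch on target genes. In megakaryocytes, the bone marrow cells that shed platelets, thrombopoietin signals chiefly through Jak2, with Tyk2 also bound to its receptor, and activates Stat3, Stat5a and Stat5b, while the adaptor protein Sh2b3 (Lnk) restrains Jak2. Platelets have no nucleus, and most of their mRNA is inherited from the megakaryocyte. In these bulk samples, fewer cells of a type and less RNA per cell cannot be told apart.

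Libraries held 25189231 to 29421549 counts, and each had a count for at least 9820 genes. Counts of the 8 genes ran from 141 for Tyk2 to 10859 for Jak1. Levels are CPM, counts divided by a library total that was scaled by the TMM method. The TMM factor was 1.19 for wild-type replicate 3, of day 3, and 0.912 to 1.05 for the other libraries, so day 3 comparisons depend on this scaling. A gene was called when its Benjamini-Hochberg adjusted p over the 9822 genes was under 0.05 in the edgeR quasi-likelihood test. All 10 platelet and megakaryocyte markers were measured, with a summed level of 33195 to 40522 CPM in wild-type and 42273 to 46950 CPM in mutant libraries. Of these markers 4 were higher (40%, beside 12.9% of all genes) and 1 lower (10%, beside 9.16%) in the mutant. With the day as a block in edgeR, 7 were higher (70%, beside 22% of all genes) and 1 lower (10%, beside 18%). The 2 libraries of day 1 stood apart from the others of their genotype, with a mean chi-square per gene of 85.1 to 104 against them and of 14.5 and 17.9 between the libraries of days 2 and 3. Summed red cell markers were 31513 and 35714 CPM on day 1 and 3968 to 4559 CPM on the other days, in both genotypes.

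Jak1 and Sh2b3 were the most abundant of the 8 transcripts per length, and Tyk2 the least. In wild-type platelets, Jak1 had 71.8 ± 5.56 CPM per kilobase of counted gene length (SD, n = 3), above 94.2% of all genes. Sh2b3 followed with 50.1 ± 7.96, Jak2 with 25.8 ± 3.35 and Stat5b with 17.6 ± 2.30 CPM per kilobase. Stat3 (6.58 ± 0.563) and Stat6 (5.66 ± 0.781) came next and overlapped, and Stat5a had 2.37 ± 0.297 CPM per kilobase. Tyk2, with 1.51 ± 0.215 CPM per kilobase, lay above 51.0% of all genes. The wild-type ranges of all other neighbours in this order did not overlap. In mutant platelets the order differed in 1 place, where Sh2b3 (73.6 ± 8.94 CPM per kilobase) had a higher mean than Jak1 (64.2 ± 0.940) with overlapping libraries.

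**Figure D1:**
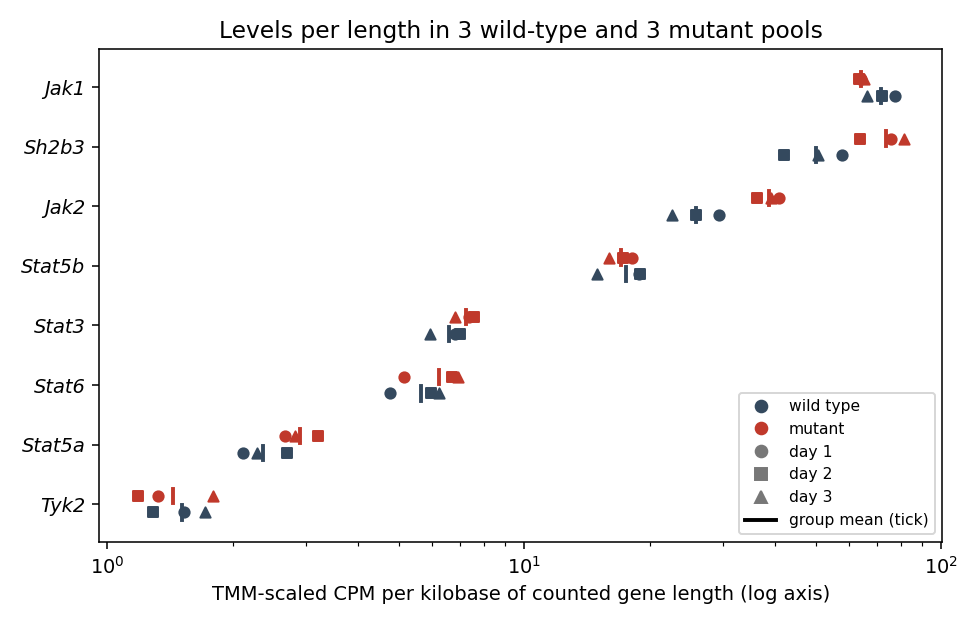
Level of each of the 8 genes in CPM per kilobase of counted gene length, on a log axis, in 3 wild-type and 3 mutant platelet pools, with symbols for the preparation day and a tick at the group mean. Mutant points of Jak2 and Sh2b3 lie to the right of all wild-type points of the same gene, and Tyk2 has the lowest level in both groups.

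Jak2 was higher in mutant platelets. Its level was 206, 181 and 196 CPM in the mutant pools of days 1, 2 and 3 and 147, 129 and 113 CPM in the wild-type pools of the same days. The lowest mutant pool was above the highest wild-type pool. Mutant pools averaged 194 ± 12.2 CPM and wild-type pools 130.0 ± 16.9 CPM (SD, n = 3 each), a 1.49-fold difference with a log2 fold change of 0.58 ± 0.12 (SE, adjusted p = 0.00131 by edgeR). The gene (Entrez 16452, protein-coding) spans chromosome 19, 29251803 to 29313095 in GRCm38.p6, the assembly of mm10, and begins 20.5 Mb from the end of Nxf1 on the same chromosome. It overlaps no other gene annotated in GENCODE, and none of the 50-base stretches of its longest coding transcript occurs in a transcript of another gene. Jak2 was called in all 18 alternative fits, including the fit without day 1 (0.60, adjusted p = 0.0249), with log2 fold changes of 0.42 to 0.64.

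Sh2b3, whose protein binds phosphorylated Jak2 and dampens thrombopoietin signalling, was also higher. Its level was 188, 159 and 202 CPM in mutant and 143, 104 and 125 CPM in wild-type pools of days 1, 2 and 3. The groups did not overlap, and the rise was seen within each day. The means were 183 ± 22.2 and 124 ± 19.8 CPM (SD, n = 3 each), 1.47-fold apart, with a log2 fold change of 0.56 ± 0.13 (SE, adjusted p = 0.00393 by edgeR). The gene (Entrez 16923, protein-coding) lies on chromosome 5, 121815481 to 121837645, and 99 of its 4807 annotated exon bases overlap exons of Atxn2 on the other strand, whose reads cannot be separated, since strand is not marked by the kit the labels name. Atxn2 was lower in the mutant, at 4.81 ± 0.825 against 7.46 ± 0.108 CPM (SD, n = 3 each, log2 fold change -0.63, adjusted p = 0.00661 by edgeR). The call for Sh2b3 was lost in 5 of 18 alternative fits, with library size alone (adjusted p = 0.0609), in a fit limited to genes averaging 10 CPM or more (0.0584) and without wild-type replicate 2 (0.0615), day 2 (0.0887) or day 3 (0.182), and its log2 fold change ran from 0.39 to 0.63. Without day 1, Sh2b3 was called (0.61, adjusted p = 0.0225).

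Of the 8 genes, Jak2 and Sh2b3 were called, both higher, while the same test called 22.1% of all genes, with 12.9% of all genes higher in the mutant and 9.16% lower. The 2 called genes are 25% of the 8, a share near that of all genes called in either direction. The median log2 fold change of the 8 genes was 0.14, and that of all genes was -0.04. Groups did not overlap for 3 of the 8, Jak1, Jak2 and Sh2b3, and for 36.3% of all genes, with the mutant higher for Jak2 and Sh2b3 and for 20.4% of all genes. Levels of 6 of the 8 moved the same way on all 3 days, as did those of 60.8% of all genes.

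**Figure D2:**
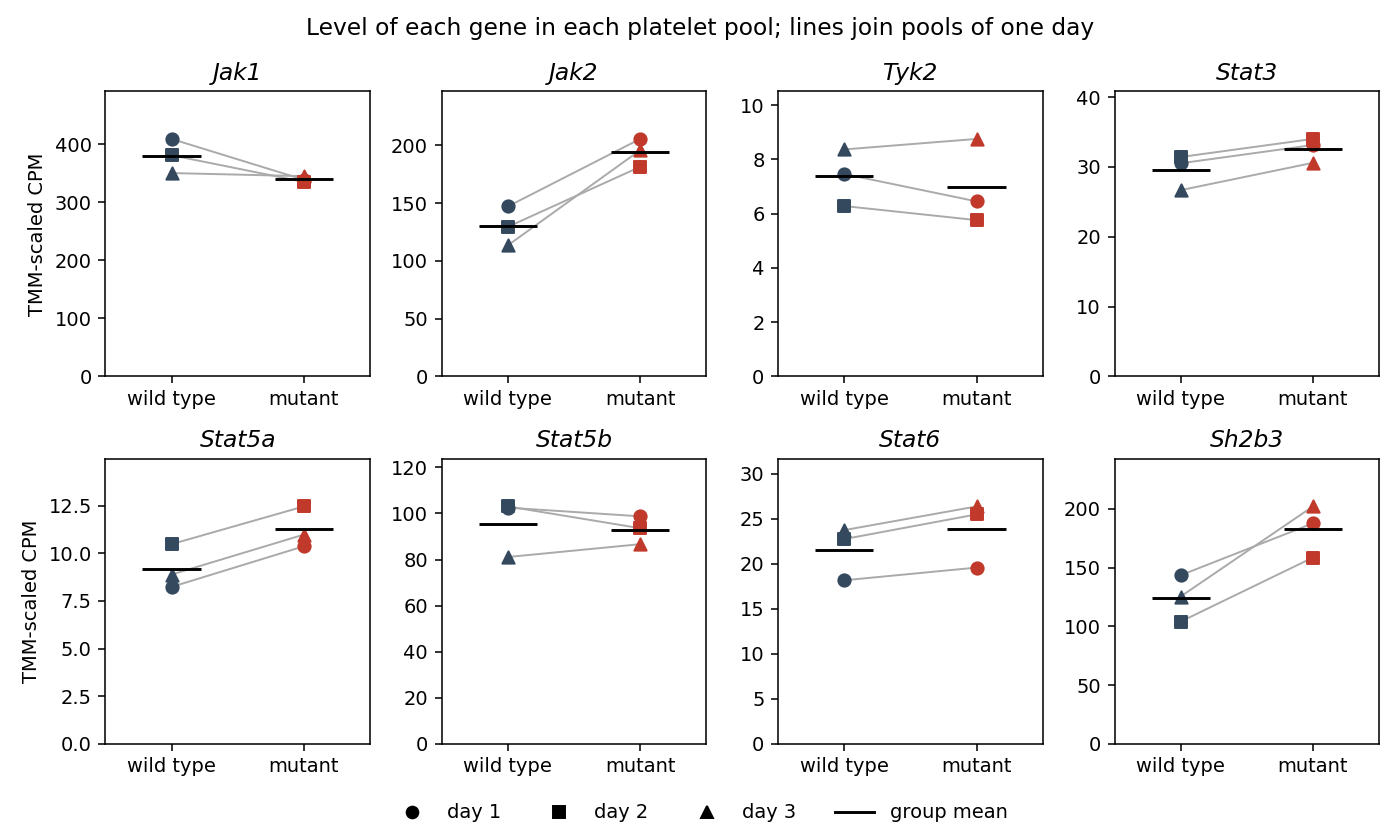
TMM-scaled CPM of each of the 8 genes in every wild-type and mutant platelet pool (axes start at 0), with lines joining the 2 pools of a day and bars at group means. Jak2 and Sh2b3 rise from wild type to mutant on all 3 days, to means of 194 and 183 CPM. On this scale the lines of Tyk2 and Stat5b run in both directions, and those of day 3 depend on the TMM factor of 1.19 of wild-type replicate 3.

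Jak1, the kinase shared by interferon and interleukin receptors, did not rise with Jak2. Its level was 339, 335 and 345 CPM in mutant pools of days 1, 2 and 3, and 409.6, 382 and 351 CPM in wild-type pools. All mutant pools were below all wild-type pools, by the least on day 3 with TMM scaling. The log2 fold change was -0.16 with a 95% interval of -0.39 to 0.066, and Jak1 was not called (adjusted p = 0.329 by edgeR). With library size alone the log2 fold change was -0.24, also not called (adjusted p = 0.0560 by edgeR). With the preparation day as a block, Jak1 was called lower by edgeR (adjusted p = 0.0444) and by DESeq2 (adjusted p = 0.0255). In the block fit of edgeR, 4 of the 8 genes were called, Jak1 lower and Jak2, Stat5a and Sh2b3 higher, beside 40% of all genes, 22% higher and 18% lower. In the block fit of DESeq2, 28.1% of 8869 genes were called, 17.8% higher and 10.3% lower. Jak1 was also called lower without day 3 and in the fit limited to genes averaging 10 CPM or more (log2 fold change -0.33, adjusted p = 0.00161). The gene (Entrez 16451) lies on chromosome 4, 101151974 to 101265282, and shares 4 exon bases with Raver2.

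Tyk2, a kinase of interferon and thrombopoietin receptors, was the least abundant of the 8. It had 6.45, 5.76 and 8.75 CPM in mutant and 7.46, 6.28 and 8.36 CPM in wild-type pools of days 1, 2 and 3, and the groups overlapped. Its log2 fold change was -0.08, with an interval of -0.43 to 0.28 (adjusted p = 0.798 by edgeR). The gene (Entrez 54721) lies on chromosome 9, 21104068 to 21131393, and shares 554 of 6865 annotated exon bases with the antisense gene 1700084C06Rik, so that reads of the 2 cannot be separated there. Jak3, the remaining JAK gene, averaged 6.40 ± 1.24 in mutant and 6.25 ± 1.33 CPM in wild-type pools (SD, n = 3 each, adjusted p = 0.935 by edgeR).

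On the scale of counts per kilobase, Jak2 made up 36.5 ± 1.42% of JAK transcripts in mutant pools and 25.6 ± 1.17% in wild-type pools, and Jak1 60.7 ± 1.15% and 71.3 ± 0.528% (SD, n = 3 each). Jak3 and Tyk2 each held between 1.09% and 2.00% in every library. The ratio of Jak1 to Jak2, which does not depend on how libraries are scaled, was 1.57, 1.76 and 1.67 in mutant and 2.64, 2.80 and 2.94 in wild-type pools of days 1, 2 and 3. The groups did not overlap, the mutant pool had the lower ratio on all 3 days, and the mean difference was -0.75 on the log2 scale. A two-sided exact permutation test gave p = 0.1, the smallest that 3 against 3 allow, and 0.2 adjusted over the 4 ratios tested. The ratio of Sh2b3 to Jak2 averaged 1.90 ± 0.167 in mutant pools and 1.95 ± 0.307 in wild-type pools (SD, n = 3 each), higher in the mutant on 1 of 3 days (two-sided exact permutation p = 1).

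**Figure D3:**
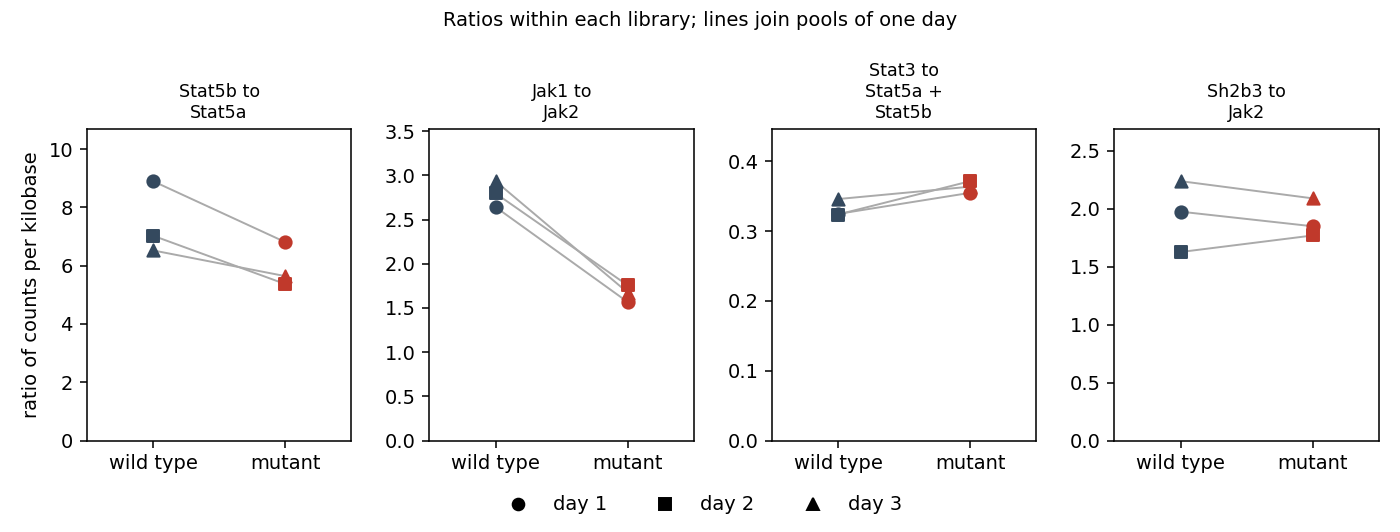
Ratios of counts per kilobase between genes of one library (axes start at 0), for wild-type and mutant pools, with lines joining the 2 pools of a day. The ratio of Jak1 to Jak2 lies between 2.64 and 2.94 in wild-type and between 1.57 and 1.76 in mutant pools, lower in the mutant on all 3 days, and the ratio of Sh2b3 to Jak2 overlaps between groups.

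The upstream sequences of the kinase that rose and the kinase that did not are shown side by side. Both are the bases before the annotated start in the RefSeq promoter table of GRCm38.p6, 5′ to 3′ on the gene's strand, cut where an annotated transcript of the gene begins, with each CpG in capitals.
Jak2, chr19:29251553-29251802, plus strand: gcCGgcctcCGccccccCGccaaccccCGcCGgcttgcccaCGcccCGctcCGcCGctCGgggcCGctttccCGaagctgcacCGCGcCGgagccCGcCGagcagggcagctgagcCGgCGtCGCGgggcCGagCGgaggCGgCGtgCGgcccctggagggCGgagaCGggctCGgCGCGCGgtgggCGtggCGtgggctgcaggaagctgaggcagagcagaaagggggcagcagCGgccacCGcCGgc
Jak1, chr4:101265283-101265473, minus strand: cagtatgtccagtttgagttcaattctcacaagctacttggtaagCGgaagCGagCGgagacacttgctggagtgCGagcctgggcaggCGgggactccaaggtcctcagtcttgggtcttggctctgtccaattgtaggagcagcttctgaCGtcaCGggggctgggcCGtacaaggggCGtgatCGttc
The Jak2 sequence held 37 CpGs in 250 bases, 14.8 per 100 bases, and the Jak1 sequence 10 in 191 bases, 5.24 per 100 bases. Over the 250 bases before the listed start, GC content was 80.8% for Jak2 and 61.2% for Jak1, beside a median of 52.4% over all 32851 windows of the table, and 99.0% of windows had a lower GC content than that of Jak2. The STAT motif TTCNNNGAA, searched on both strands, was in none of the 10 windows listed for the 8 genes and in 7.02% of all windows. The GATA motif AGATAA was in none of the 10 (9.99% of all windows), and the ETS motif CCGGAA was in 1, at Stat5b (12.0% of all windows). These matches describe letters only. All windows listed for Stat5a, Stat5b and Sh2b3 lie within the RefSeq span of their gene, so the bases before its outer start were not searched.

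Among the STAT genes, Stat5b was the most abundant transcript and was not called. Its level was 98.8, 93.6 and 86.7 CPM in mutant and 103, 103 and 81.1 CPM in wild-type pools of days 1, 2 and 3. The mutant pools lay within the wild-type range. The log2 fold change was -0.04, with an interval of -0.29 to 0.21 (adjusted p = 0.861 by edgeR), and Stat5b was called lower in the fit limited to genes averaging 10 CPM or more (-0.20, adjusted p = 0.0359). Stat5a, its close paralog, showed 10.4, 12.5 and 11.0 CPM in mutant and 8.23, 10.5 and 8.88 CPM in wild-type pools. Each mutant pool was above the wild-type pool of its day, while the groups overlapped. Its log2 fold change of 0.29 (interval 0.0039 to 0.58, not adjusted for the number of genes) was not called (adjusted p = 0.146 by edgeR) and was called with the day as a block by edgeR (0.00651) but not by DESeq2 (0.114).

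Counts of Stat5a and Stat5b are uncertain, because reads from identical stretches cannot be assigned to one gene and the labels do not say how such reads were counted. Of the 50-base stretches of the longest coding transcript, 16.4% for Stat5a and 11.8% for Stat5b also occur in a transcript of another gene, and 6.99% and 5.18% of 100-base stretches. The longest run that the coding sequences share is shown because it marks where the 2 counts could mix. It has 324 bases and covers positions 571 to 894 of both coding sequences, counted from the start codon, and its first 120 bases, up to position 690, are printed from the GENCODE transcripts.
Stat5a and Stat5b, start of the shared run: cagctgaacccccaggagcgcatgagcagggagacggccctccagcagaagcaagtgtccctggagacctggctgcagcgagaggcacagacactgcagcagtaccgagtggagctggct
The 3 genes Stat5b, Stat5a and Stat3 also lie next to each other on chromosome 11. Stat5b (Entrez 20851) spans 100780731 to 100859004, Stat5a (Entrez 20850) 100859351 to 100885169 and Stat3 (Entrez 20848) 100886806 to 100939594, with gaps of 347 and 1637 bases in RefSeq. In GENCODE, 72 exon bases are shared by Stat5a and Stat3, which are read from opposite strands. The ratio of Stat5b to Stat5a per kilobase was 6.81, 5.37 and 5.64 in mutant and 8.90, 7.03 and 6.52 in wild-type pools of days 1, 2 and 3. On each day the mutant pool had the lower ratio, with a mean difference of -0.33 on the log2 scale, and the groups overlapped (two-sided exact permutation p = 0.2, adjusted 0.267 over 4 ratios).

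Stat3, which responds to interleukin-6 type cytokines and thrombopoietin, had 33.1, 34.0 and 30.6 CPM in mutant and 30.5, 31.4 and 26.7 CPM in wild-type pools of days 1, 2 and 3. The mutant pool was the higher one on each day, but the groups overlapped. Its log2 fold change of 0.14 (interval -0.10 to 0.38) was not called (adjusted p = 0.427 by edgeR). The ratio of Stat3 to the sum of Stat5a and Stat5b per kilobase was 0.355 to 0.372 in mutant and 0.324 to 0.346 in wild-type libraries, without overlap (two-sided exact permutation p = 0.1, adjusted 0.2 over 4 ratios).

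Stat6, the transcription factor of interleukin-4 signalling (Entrez 20852, chromosome 10, 127642955 to 127660987, with 40 exon bases shared with Nab2), had 19.6, 25.5 and 26.4 CPM in mutant and 18.2, 22.7 and 23.7 CPM in wild-type pools of days 1, 2 and 3. In both genotypes the pool of day 1 was the lowest, and the groups overlapped. Its log2 fold change was 0.14, with an interval of -0.14 to 0.43 (adjusted p = 0.511 by edgeR).

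**Figure D4:**
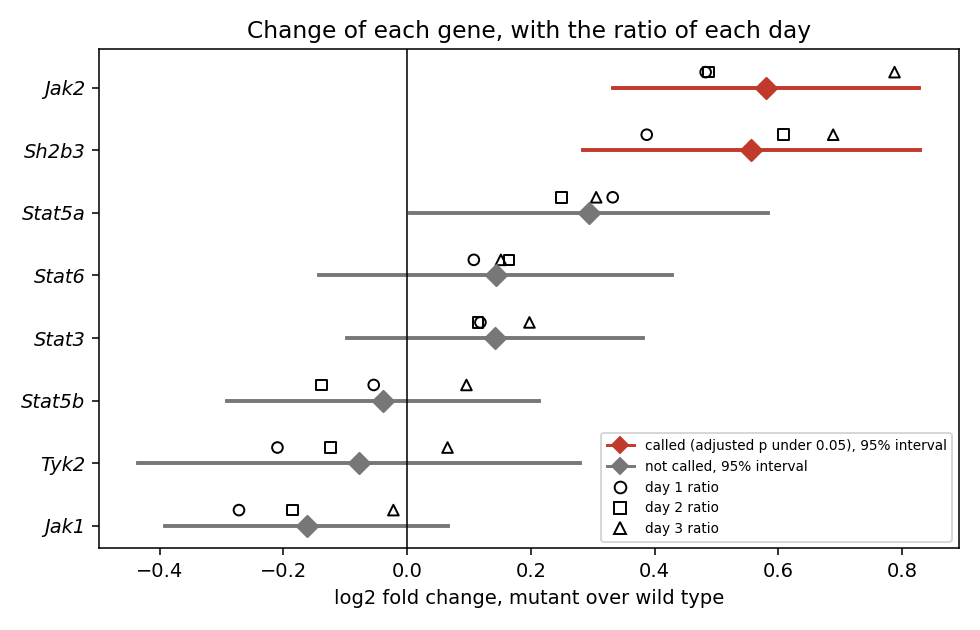
Log2 fold change of mutant over wild-type platelets for each of the 8 genes, with 95% intervals from the edgeR fit of all 6 libraries and open symbols for the ratio of each preparation day. The intervals of Jak2 and Sh2b3 lie above 0 and those genes are called, and the 6 others are not called, with Stat5a closest at an interval from 0.0039 to 0.58.

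The wider pathway was described from 5 lists of genes by role, holding 142 genes, of which 117 were tested. Among them 19 were higher (16.2%, beside 12.9% of all genes) and 5 lower (4.27%, beside 9.16%), and their median log2 fold change was 0.08. With the day as a block in edgeR, 38 were higher (32.5%, beside 22% of all genes) and 11 lower (9.40%, beside 18%). The share called in either direction was 20.5% without the block, and whether the lists differ from other genes was not tested.

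Of 25 genes of the cytokine receptor list, 4 rose (16%, beside 12.9% of all genes) and 2 fell (8%, beside 9.16%). With the day as a block in edgeR, 6 rose (24%, beside 22% of all genes) and 2 fell (8%, beside 18%). The median log2 fold change was 0.10. Epor, the erythropoietin receptor, which also signals through Jak2, rose from 11.2 ± 0.861 to 20.7 ± 1.91 CPM (SD, n = 3 each, log2 fold change 0.89 ± 0.12, SE, adjusted p = 3.65e-05 by edgeR). Crlf2, the receptor for thymic stromal lymphopoietin, rose from 7.13 ± 0.524 to 11.4 ± 1.38 CPM (log2 fold change 0.67), and Il10rb, a shared chain of interleukin-10 family receptors, had a log2 fold change of 0.51. Il21r, the interleukin-21 receptor, fell from 61.9 ± 6.37 to 37.1 ± 2.83 CPM (log2 fold change -0.74, adjusted p = 0.000151 by edgeR), and Il15ra, at 1.06 and 2.05 CPM in mutant and wild-type platelets, had -0.95. Of the 5 genes listed as other JAK and STAT pathway genes, 0 were called by edgeR, DESeq2 or limma and 0 had an unadjusted p under 0.05, with a median log2 fold change of -0.10.

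Of 24 inhibitors and phosphatases, 3 rose and 0 fell, with a median log2 fold change of 0.04. The share called was 12.5%, beside 22.1% of all genes, and the share higher was also 12.5%, beside 12.9% of all genes. By DESeq2 4 rose and 0 fell, by limma 3 and 0, and 2 genes were lower at an unadjusted p under 0.05 in edgeR. With the day as a block in edgeR, 7 rose (29.2%, beside 22% of all genes) and 2 fell (8.33%, beside 18%). The block fit of DESeq2 had 7 higher (30.4%, beside 17.8% of all genes) and 0 lower (beside 10.3%). Ptpn11, which encodes the phosphatase SHP2 and is known for carrying receptor signals on to Ras rather than for ending them, rose from 706 ± 90.4 to 1192 ± 77.5 CPM (SD, n = 3 each, log2 fold change 0.76, adjusted p = 0.00018 by edgeR). Ptprj, a receptor phosphatase that acts on Src family kinases in platelets, had a log2 fold change of 0.64, and Dok1, an adaptor that dampens Ras signalling, had 0.59. Of 45 adaptors and downstream kinases, 9 rose (20%, beside 12.9% of all genes) and 2 fell (4.44%, beside 9.16%). In either direction 24.4% were called, beside 22.1% of all genes, and the median log2 fold change was 0.18. With the day as a block in edgeR, 19 rose (42.2%, beside 22% of all genes) and 6 fell (13.3%, beside 18%). By DESeq2 with the block, 16 rose (35.6%, beside 17.8% of all genes) and 2 fell (4.44%, beside 10.3%). The tyrosine kinase Src rose from 29.9 ± 3.36 to 68.1 ± 8.40 CPM (SD, n = 3 each, log2 fold change 1.19, adjusted p = 1.52e-06 by edgeR). Vav1 (0.70), Pik3cg (0.65) and the adaptor Crkl (0.63) also rose. The Ras activator Sos2 (-0.55, adjusted p = 0.0154 by edgeR) and the PI3-kinase regulatory subunit Pik3r1 (-0.47, adjusted p = 0.0390 by edgeR) fell. Pik3r1 was near the threshold, and its log2 ratio was -0.71 on day 1 and -0.15 on day 3.

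Of 19 genes listed as targets of STATs, 3 rose (15.8%, beside 12.9% of all genes) and 1 fell (5.26%, beside 9.16%). With the day as a block in edgeR, 6 rose (31.6%, beside 22% of all genes) and 1 fell (5.26%, beside 18%). The median log2 fold change of the 19 was 0.05. The cyclin gene Ccnd3 rose from 351 ± 5.96 to 621 ± 22.8 CPM (SD, n = 3 each, log2 fold change 0.82, adjusted p = 1.78e-05 by edgeR). The survival gene Bcl2l1, which encodes BCL-XL, rose from 218 ± 19.2 to 299 ± 26.9 CPM (log2 fold change 0.45, adjusted p = 0.00635 by edgeR), and lost its call in 4 of 18 alternative fits. Ccnd1 (1.29) rose from 2.56 to 6.23 CPM and Cebpb (-0.65) fell from 2.00 to 1.27 CPM (lost in 9 of 17 fits), and both are uncertain, because 23.4% and 20.7% of their annotated exon bases are shared with another measured gene. For Ccnd3 that share is 4.11%.

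**Figure D5:**
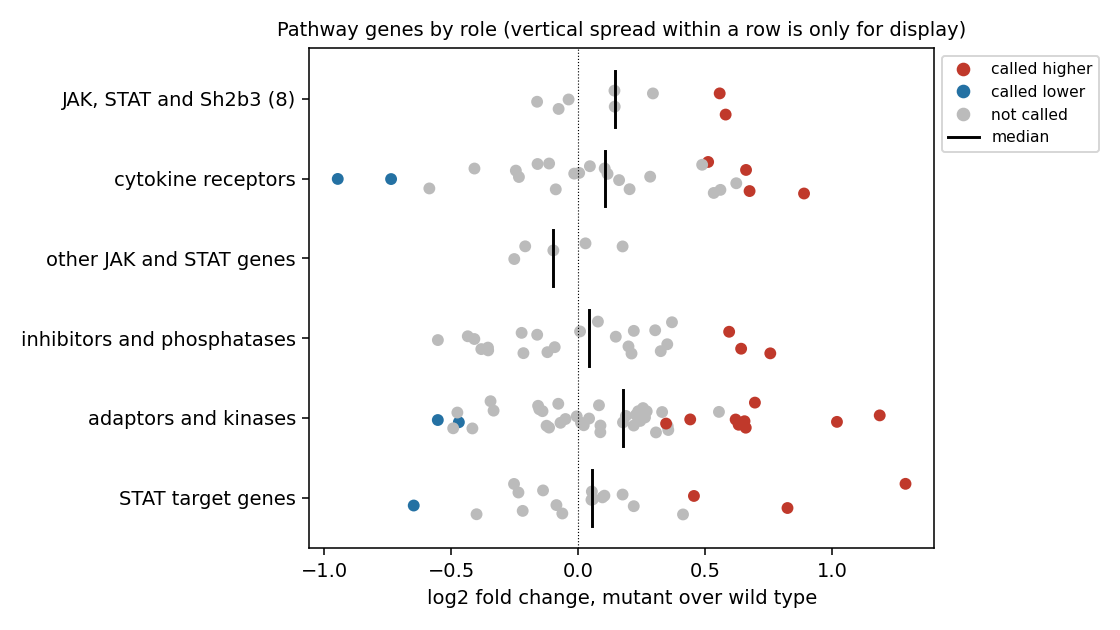
Log2 fold change of mutant over wild-type platelets for the 8 genes and for 5 lists of pathway genes by role, 1 point per gene, with called genes in colour and a bar at each list's median. In each list most points are not called, and list medians run from -0.10 for the other JAK and STAT genes to 0.18 for adaptors and kinases.

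The genes whose levels ran most like Jak2 over the 6 libraries were Cds2, an enzyme of phosphoinositide synthesis, Atp8a1, a phospholipid flippase, and Mylk, the myosin light chain kinase. Their log2 CPM, centred on each gene's mean, lay at Euclidean distances of 0.081, 0.084 and 0.091 from that of Jak2. They had log2 fold changes of 0.63, 0.53 and 0.60. Sh2b3 was at a distance of 0.37, rank 663 among the genes compared, and Jak1 at 0.93. The genes compared were those outside the 8, leaving out unnamed genes and names of clones, predicted genes or pseudogenes. All distances share the same 6 libraries and describe likeness of pattern only.

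Markers of other blood cells were measured in the same libraries, where edgeR called 12.9% of all genes higher in the mutant and 9.16% lower. Of 6 neutrophil and monocyte markers tested, Lyz2 was higher and Ly6c2 lower in mutant platelets by edgeR. Limma called 1 in each direction, and DESeq2 called 1 higher and 0 lower, with 1 lower at an unadjusted p under 0.05. The 6 markers summed to 1781 to 2094 CPM in mutant and 1166 to 1605 CPM in wild-type libraries. Lyz2 made up 1765 to 2080 and 1148 to 1587 CPM of these sums. Of 4 general leukocyte markers 2 fell (50%). Sums of the 4 were 1006 to 1177 CPM in mutant and 1375 to 1497 CPM in wild-type libraries. Of 7 B cell markers 3 fell (42.9%), with sums of 190 to 244 and 234 to 322 CPM. The 6 T and NK cell markers tested summed to 11.9 to 14.0 and 13.6 to 14.1 CPM, with 0 called by edgeR or DESeq2, 1 by limma and 3 at an unadjusted p under 0.05 in edgeR. The Lyz2 level and the platelet marker sum were higher in mutant pools, as were Jak2 and Sh2b3, and the leukocyte sum was lower. The part of these markers' cells in the results was not tested.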

How the data were processed

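Per the file headers, the deposited values are raw counts, 1 file a library, beside the length of every gene. The submitters' processing notes name CASAVA 1.8.2, Subread, featureCounts and mm10, without their roles or settings, and the treatment of reads matching several genes was not given. Each of the 9822 genes is above 0.5 CPM in 3 or more libraries, and RefSeq symbols (GRCm38.p6) were matched to 9636. Groups follow the genotype labels and days the batch labels. Counts of all genes were fitted with edgeR 4.0.16 (R 4.3.3, TMM scaling, robust quasi-likelihood, genotype only, two-sided) and tested on simulated data first. The biological coefficient of variation was 14.2%, and 5.73% with the day as a block. The batch labels pair the libraries. Deviations from group means had correlations of 0.431, 0.271 and 0.482 for pools of the same day and of -0.0104 or below for others. Such deviations cancel out within a group, so positive values for the same day force negative ones on balance for the others. P-values measure the spread between pools, whose separate animals are not given. Intervals at 95% use the fitted SE and the moderated degrees of freedom. The alternative fits used DESeq2 1.42.0, limma-voom (limma 3.58.1), other scalings, the day as a block, a filter at a mean of 10 CPM, leaving out the 10 most abundant genes, and leaving out each library or day. The named genes were the 8, up to 4 called genes of smallest p per role list and the 3 genes nearest in pattern to Jak2, which had the smallest p of the 8. Some genes that the rule or lists take are not reported here, and Il10rb, Il15ra, Sos2, Pik3r1 and Atxn2 were named after their values were seen. The members and lists were chosen with earlier results of these data known.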

Additional observations from a re-analysis of the deposited data

How the results depend on the processing

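Genes were refitted under 18 alternatives, or 17 for those under the limit of 10 CPM (Tyk2, Crlf2, Ccnd1 and Cebpb). Jak2 and, among the named pathway genes, Epor, Il21r, Ptpn11, Src, Vav1, Pik3cg, Crkl and Ccnd3 were called in all 18, Sh2b3 in 13 and Bcl2l1 in 14. Crlf2, Dok1, Ptprj and Mylk each lost the call in 1, Atp8a1 in 2 and Cebpb in 9. The count of called genes among the 8, which was 2, became 4 with the replicate block by edgeR (Jak1, Jak2, Stat5a and Sh2b3) and 1 with library size alone (Jak2), and ran from 1 to 2 when a library or day was left out. Limiting the fit to genes averaging 10 CPM or more moved the log2 fold changes of those genes by a median of -0.17, through the scaling. There Jak2 (0.42) stayed called, Jak1 (-0.33) and Stat5b (-0.20) were called lower, and the uncalled values of Stat3 (-0.024) and Stat6 (-0.031) changed sign. With a library left out, log2 fold changes ran from -0.27 to 0.026 for Tyk2 (highest without wild-type replicate 3), from -0.14 to 0.0097 for Stat5b (highest without mutant replicate 3) and from -0.0053 (without wild-type replicate 1) to 0.22 for Stat6, and the cause of these changes of sign was not tested. Over all genes, 2166 were called (1266 higher and 900 lower, against 956 and 909 with library size alone, 723 and 755 with the limit at 10 CPM, 1060 and 1014 with the top 10 genes removed and 1178 and 1026 under upper-quartile scaling), 3929 with the replicate block by edgeR, and 1005 to 2396 when a library or day was left out. Of the 117 other pathway genes, 24 were called, 49 with the block, and 15 to 28 with a library or day left out. The difference in the ratio of Sh2b3 to Jak2 was -0.024 on the log2 scale and ran from -0.15 to 0.083 over the 6 fits without 1 library. The other ratios kept their direction in every alternative run. Pairing by day gave p = 0.25 at the least in an exact sign-flip permutation test of a ratio (the replicate block), reached for Jak1 to Jak2, Stat5b to Stat5a and Stat3 to Stat5a plus Stat5b. Among the 8 genes, Tyk2 had the lowest depth, with 141 to 259 counts per library. Without day 1 Jak2 and Sh2b3 remained called.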
